A study of Mus musculus with 5 samples.

Results

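The mitochondrial carriers of the SLC25 family were examined in primary adipocytes isolated from the epididymal fat of C57BL/6N mice kept on a high-fat diet for 12 weeks. Members were the genes of the deposited transcript table whose symbol begins with Slc25a, with the citrate and carnitine carriers Slc25a1 and Slc25a20 left out, and estimated counts were summed per gene identifier. This gave 45 genes of 24531 in the table, from 68 RefSeq transcripts. There were 2 libraries from mice with an adipocyte-specific knockout of Prmt1, called Prmt1 FKO in the sample titles, and 3 from Prmt1 f/f mice, whose genotype label is WT. All mice shared the strain and the diet, so no lean or chow-fed sample enters a comparison. The sources used here name neither the Cre driver nor the exons removed, and do not say whether each library came from 1 animal. Every p-value therefore reflects the spread among these 5 libraries, which may be technical.

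SLC25 proteins sit mostly in the inner mitochondrial membrane, which is otherwise closed to charged metabolites, and each moves a narrow set of nucleotides, carboxylates, amino acids, cofactors or ions, usually by exchanging 1 for another. They supply ADP and phosphate to the ATP synthase, carry reducing equivalents between cytosol and matrix, and bring in the cofactors that matrix enzymes need. In fat cells they also let carbon leave the mitochondrion for fatty acid synthesis and for glyceroneogenesis.

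Estimated counts summed to between 43580154 and 57016997 per library, so that 3 counts corresponded to between 0.0526 and 0.0688 CPM before TMM scaling. Prmt1, the deleted gene, had 21.0 and 19.35 CPM (library-scaled counts, with TMM factors) in the FKO libraries, against 34.15, 29.4 and 32.3 CPM in the f/f libraries. The edgeR quasi-likelihood fit put FKO over f/f at -0.66 on the log2 scale (SE 0.14, adjusted p = 0.0171). Leaving out FKO replicate 1 (edgeR adjusted p = 0.115) or 2 (0.161) ended this call, within a range of 0.000719 to 0.161 over 15 alternatives. Adipoq, Plin1 and Fabp4 were each at 1056 CPM or more in every library, and the 10 adipocyte markers together held 44800 and 42320 CPM in FKO, against 35350, 32680 and 34110 CPM in f/f, with a median log2 fold change of 0.27. Of these 10, 4 rose by edgeR's test, where 11.9% of all genes tested did. Cidea rose 13.01-fold, Slc2a4 2.17-fold, Pnpla2 1.91-fold and Cidec 1.84-fold, while Adipoq, Plin1, Fabp4, Pparg, Lipe and Lep did not pass. Pparg and Lipe stood at 0.01 and -0.01 on the log2 scale. Lep stood at -0.72 (SE 0.43, edgeR adjusted p = 0.254), with 1070 and 1297 CPM in FKO and 949.4, 2967 and 1943 CPM in f/f. The Cidea call was kept in all 15 alternatives, those of Slc2a4, Pnpla2 and Cidec were lost without FKO replicate 1 (edgeR adjusted p = 0.0767, 0.0635 and 0.0873) or 2 (0.0683, 0.0667 and 0.076), and that of Cidec also without f/f replicate 2 (0.0587) and on both FPKM scales (0.146 and 0.123). Their lowest values over the alternatives were 1.92e-05, 3.75e-13 and 5.27e-11. All 7 mesothelial markers and 7 of 8 macrophage markers fell (median log2 fold changes -2.14 and -1.50). The macrophage markers summed to 340.6 and 464.2 CPM in FKO and to 1082, 770.2 and 1420 CPM in f/f, and none of them was at 0. The mesothelial markers summed to 22.5 and 14.2 CPM in FKO and to 96.6, 48.8 and 77.4 CPM in f/f, again with none at 0. Of 8 fibroblast and progenitor markers, 4 fell, with a median of -1.17, where 13.4% of all genes tested fell. None of 6 endothelial markers passed (median -0.21). Of 4 lymphocyte markers tested, Ptprc fell (-0.93, SE 0.27, edgeR adjusted p = 0.045). None of the tested erythroid and skeletal muscle markers passed. Of 4 markers of the epididymal epithelium only 1, Crisp1, was tested. Crisp1 had 0 counts in FKO and 283, 21 and 63 in f/f (edgeR adjusted p = 0.0391), a call kept in 9 of 14 alternatives. It passed the filter on low counts only through f/f, the group where it was high. In RNA pooled from many cells, fewer cells of a type and less RNA per cell cannot be told apart, and the part of other cell types in the differences below was not tested.

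Carrier transcripts took a larger share of the FKO libraries. The summed FPKM of the 45 genes (a level per transcript length and library size) was 0.445% and 0.433% of all FPKM in FKO, against 0.343%, 0.321% and 0.279% in f/f. In every library 3 genes made up most of the family: the ADP/ATP carriers Slc25a5 and Slc25a4 and the phosphate carrier Slc25a3, which feed the ATP synthase, together held 57.2% and 55.7% of the family's FPKM in FKO and 55.2%, 50.4% and 55.2% in f/f. Their order differed between the groups. By mean FPKM the FKO order was Slc25a5 (459.9 ± 19.4, SD, n = 2), Slc25a4 (351.9 ± 14.8) and Slc25a3 (348.2 ± 10.7), in which Slc25a4 and Slc25a3 do not differ beyond their spread. The f/f order was Slc25a4 (268.0 ± 19.6, SD, n = 3), Slc25a3 (264.5 ± 32.9) and Slc25a5 (234.9 ± 51.9), and these 3 levels overlapped between libraries. Behind them came Slc25a39 and Slc25a10 in FKO, with mean FPKM of 188.2 and 122.7, and Slc25a25 and Slc25a39 in f/f, with 116.0 and 89.9. Slc25a25 held rank 14 in FKO and rank 4 in f/f, Slc25a22 held rank 7 and rank 12, and Slc25a51 held rank 6 and rank 10. At the other end, 13 of the 45 genes had a mean below 1 FPKM over the 5 libraries.

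**Figure D1:**
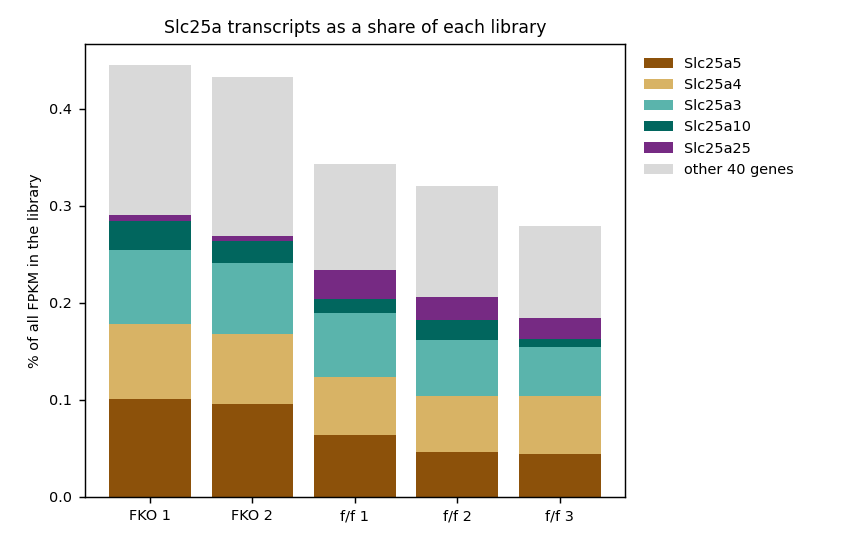
Bars show, for each FKO library and each f/f library, the FPKM of the Slc25a genes as a percentage of all FPKM in that library, with the genes Slc25a5, Slc25a4, Slc25a3, Slc25a10 and Slc25a25 drawn apart from the other 40. The FKO bars reach 0.445% and 0.433%, above the f/f bars at 0.343%, 0.321% and 0.279%, while the Slc25a25 segment is thinner in FKO.

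A filter on low counts was passed by 41 of the 45 genes. Of these 41, 16 rose in FKO (39.0%) and 3 fell (7.32%) by edgeR's quasi-likelihood test at a Benjamini-Hochberg adjusted p of 0.05 over all 14492 genes tested, of which 11.9% rose and 13.4% fell. The median log2 fold change of the 41 was 0.51, against -0.047 over all genes tested. Of the 16 that rose, 7 did so by at least 2-fold, as did 2 of the 3 that fell. The FKO libraries lay wholly above the f/f libraries in 23 of the 41 genes (56.1%) and wholly below in 7 (17.1%), where 28.6% and 30.5% of all genes tested did so, or 59.0% in either direction. Slc25a48, called higher by over 2-fold, and Slc25a2, not called, are among the 23 and passed the filter only through FKO. Slc25a48 had 67 and 40 counts in FKO and 6, 14 and 0 in f/f. Slc25a2 had 13 and 14 in FKO and 0, 6 and 6 in f/f. A stricter filter, on mean counts in both groups, left 15 carriers higher and 3 lower. Among the 20 tested carriers with a mean of at least 10 FPKM over the 5 libraries, 14 rose and 1 fell, where 19.6% of all 5287 genes at that level rose and 9.61% fell. Among the 21 carriers below it 2 rose and 2 fell, where 7.55% of all 9205 genes rose and 15.6% fell. Slc25a33 reached that level through FKO, with a mean of 20.2 FPKM in FKO and 9.43 FPKM in f/f. Scaling mattered to the counts over all genes. With TMM factors 47.1% of called genes were higher in FKO. Upper-quartile factors gave 35.0% with the median of all genes at -0.17, and unscaled library totals gave 26.1% with a median of -0.27. The log2(FPKM + 1) scale gave 28.8% with a median of -0.15, and log2(FPKM + 0.1) gave 26.9% with a median of -0.24. Unscaled library totals left 9 carriers higher and 3 lower, with the carriers' median 0.57 above that of all genes, where it had been 0.55 above. On the log2(FPKM + 1) scale 10 were higher and 3 lower, and the carriers' median was 0.35 above that of all genes. Without FKO replicate 1 the calls numbered 4 higher and 1 lower, without FKO replicate 2 they numbered 5 and 2, and without f/f replicate 2 they numbered 12 and 1. The direction of all 19 called carriers was the same in each of the alternatives that gave them a value.

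**Figure D2:**
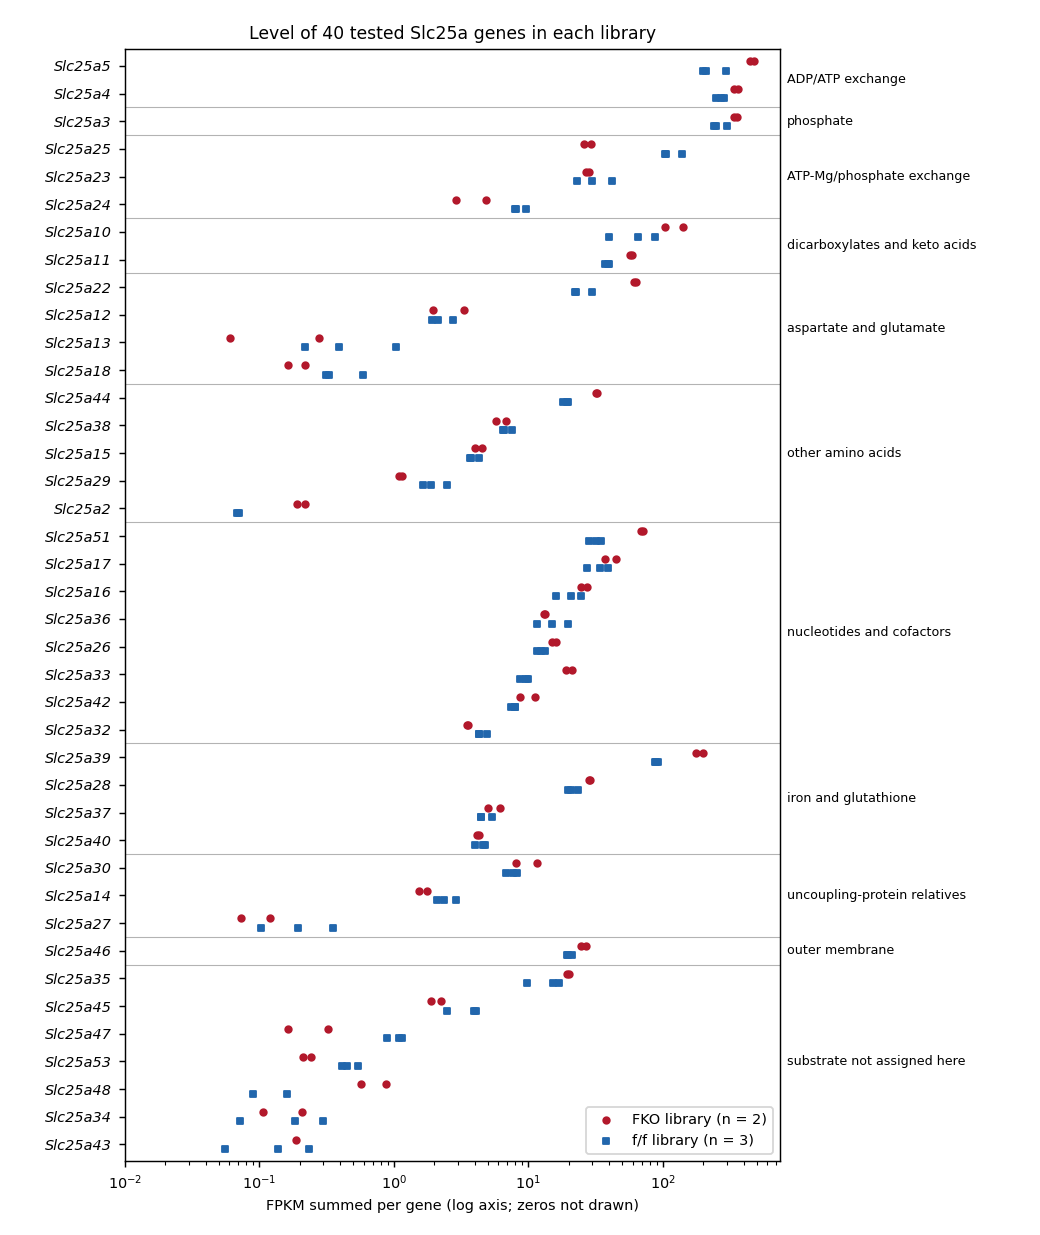
Each row is 1 of 40 tested Slc25a genes, grouped by substrate, and each point is the summed FPKM in 1 library on a log axis, with FKO libraries as circles drawn above f/f libraries as squares. Levels run from below 1 FPKM to 473.6 FPKM for Slc25a5 in FKO replicate 1, and Slc25a25 stands out with FKO points at 29.1 and 25.9 FPKM, left of f/f points at 138.3, 105.1 and 104.5 FPKM.

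**Figure D3:**
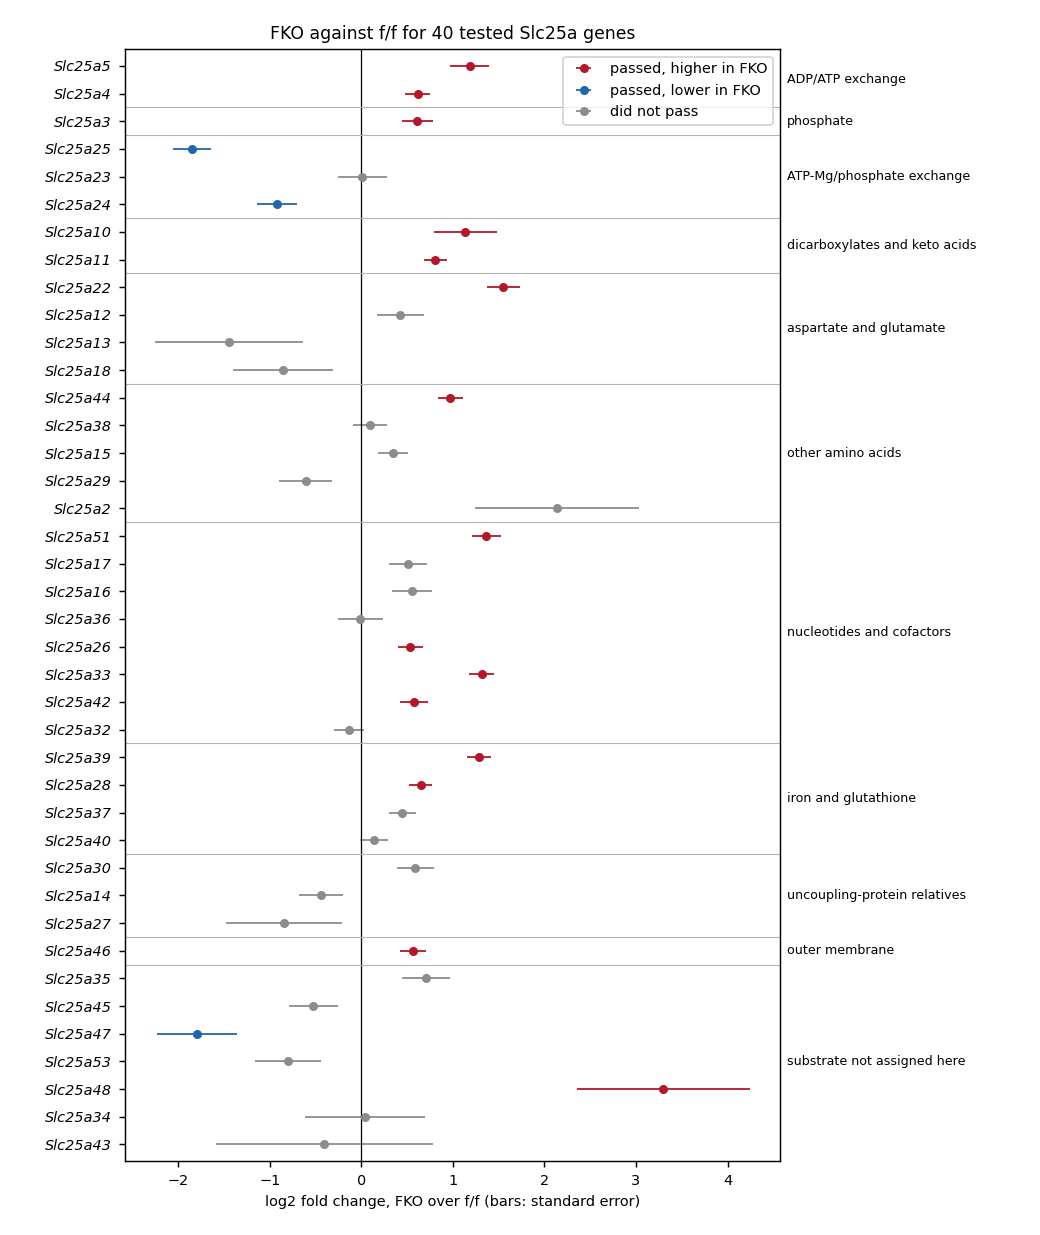
Points give the log2 fold change of FKO over f/f from edgeR's quasi-likelihood fit for the same 40 genes, and bars give its standard error. Genes that passed the test lie on the right in most substrate groups, while Slc25a25 at -1.85, Slc25a24 at -0.92 and Slc25a47 at -1.80 lie on the left.

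The carriers that serve ATP synthesis rose together. Slc25a5, an ADP/ATP translocase of proliferating and most non-muscle cells (gene 11740, mm10 chromosome X, 36795597 to 36798808), had 690.6 and 635.1 CPM in FKO, against 374.4, 255.0 and 245.5 CPM in f/f. Its lowest FKO library stood well above its highest f/f library, and it rose 2.27-fold (log2 fold change 1.18, SE 0.21, edgeR adjusted p = 0.01). Slc25a4, the translocase that predominates in heart and skeletal muscle (gene 11739, chromosome 8, 46207341 to 46211009), had 451.3 and 415.2 CPM in FKO and 294.2, 268.2 and 286.2 CPM in f/f. The groups did not overlap, and it rose 1.53-fold (0.61, SE 0.14, edgeR adjusted p = 0.0202). Slc25a3, which brings in phosphate with a proton (gene 18674, chromosome 10, 91116578 to 91123963), had 605.7 and 566.3 CPM in FKO and 448.5, 370.2 and 331.1 CPM in f/f, 1.53-fold higher in FKO (0.61, SE 0.17, edgeR adjusted p = 0.0409). The germ-cell ADP/ATP carrier Slc25a31 had 8 and 0 counts in FKO and 4, 4 and 0 in f/f and was not tested. GENCODE lists the pseudogene Slc25a5-ps, and the counting can also split reads between Slc25a4 and Slc25a5, so their separate values are uncertain to that extent. The Slc25a5 call ended without FKO replicate 1 (edgeR adjusted p = 0.0721) or 2 (0.0516), within 4.82e-06 to 0.0721 over its alternatives, and that of Slc25a4 likewise (0.183 and 0.11), scaled by library total (0.0781) and on both FPKM scales (0.0822 and 0.0825), within 5.53e-05 to 0.183. The Slc25a3 call was the least stable of the 3: it ended without FKO replicate 1 or 2 (0.235 and 0.16), without f/f replicate 2 or 3 (0.0872 and 0.0681), scaled by upper quartile (0.0692) or library total (0.103), and on the FPKM scales (0.101 and 0.0995), within 0.00438 to 0.235.

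The carriers that exchange ATP-Mg for phosphate, and so set the size of the adenine nucleotide pool in the matrix, went the other way or did not pass. Slc25a25 (gene 227731, chromosome 2, 32414487 to 32451470), whose transcript is known to respond to cyclic AMP signalling in several tissues, had 105.3 and 90.8 CPM in FKO, against 432.8, 328.9 and 301.9 CPM in f/f. The highest FKO library stood far below the lowest f/f library, and the gene fell 3.62-fold (log2 fold change -1.85, SE 0.21, edgeR adjusted p = 0.00237), a call kept in all 15 alternatives (0.0281 at most). It overlaps Naif1 on the opposite strand, which had 67 to 181 counts per library where Slc25a25 had 3822 to 19520. Slc25a24 (gene 229731, chromosome 3, 109123149 to 109168409) had 11.1 and 18.1 CPM in FKO and 26.5, 27.1 and 29.3 CPM in f/f, 1.89-fold lower in FKO (-0.92, SE 0.22, edgeR adjusted p = 0.0247). The FKO libraries differed from each other by more than the f/f libraries did. Slc25a24 stood at -0.61 on the log2 scale when FKO replicate 1 was left out and no longer passed (edgeR adjusted p = 0.159). Its call was also lost without f/f replicate 2 (0.0533) and without f/f replicate 3 (0.0516), within 0.00214 to 0.159. Slc25a23 had 107.2 and 98.8 CPM in FKO and 98.6, 138.4 and 70.5 CPM in f/f, with a log2 fold change of 0.01 (SE 0.27, edgeR adjusted p = 0.988), and its groups overlapped. The fourth, Slc25a41, whose gene lies 2057 bases from Slc25a23 on chromosome 17, had 3 counts in 1 f/f library and 0 elsewhere.

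Most counts of Slc25a25 were assigned to its shortest RefSeq form in every library. The table holds 4 transcripts of the gene, which start at 3 places. NM_001290558, from the innermost start, took 78.0% and 89.2% of the gene's counts in FKO and 91.1%, 91.8% and 88.7% in f/f. Its counts were 3695 and 3410 in FKO, against 17776, 17754 and 17153 in f/f. The outermost start is shared by NM_146118 and NM_001164357, with 0.79% of f/f counts from the middle start of NM_001164358 and 8.67% from the outermost, against 90.53% from the innermost. No change in the use of the 4 transcripts was called (edgeR diffSpliceDGE, unadjusted p = 0.358, adjusted p over 0.99). The 250 bases before each of the 3 starts are given below, 5′ to 3′, to set the innermost start, which most counts came from, beside the others (RefSeq, build GRCm38.p6).
Slc25a25 innermost start (chr2:32424067-32424316, strand minus): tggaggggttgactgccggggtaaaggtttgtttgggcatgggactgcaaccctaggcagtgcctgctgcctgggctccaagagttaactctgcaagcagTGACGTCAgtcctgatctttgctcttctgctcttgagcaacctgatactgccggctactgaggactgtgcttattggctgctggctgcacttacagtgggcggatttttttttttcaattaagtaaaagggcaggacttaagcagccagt
Slc25a25 middle start (chr2:32431152-32431401, strand minus): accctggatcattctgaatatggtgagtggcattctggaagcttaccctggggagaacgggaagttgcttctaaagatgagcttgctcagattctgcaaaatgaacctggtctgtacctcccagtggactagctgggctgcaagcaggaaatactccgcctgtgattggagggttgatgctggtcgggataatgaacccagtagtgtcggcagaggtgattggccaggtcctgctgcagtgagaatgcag
Slc25a25 outermost start (chr2:32451471-32451720, strand minus): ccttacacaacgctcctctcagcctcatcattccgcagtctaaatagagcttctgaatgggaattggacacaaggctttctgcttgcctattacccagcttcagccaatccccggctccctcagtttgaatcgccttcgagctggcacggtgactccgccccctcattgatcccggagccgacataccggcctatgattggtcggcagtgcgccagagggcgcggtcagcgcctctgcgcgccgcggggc
Capitals mark the palindrome TGACGTCA, the cyclic AMP response element, which begins 150 bases before the innermost start and was found in no other of these 3 windows. It was searched on both strands along with TNAAGGTCA (bound by estrogen-related receptors), the NRF1 element by name and CACGTG (the E-box). Of 27025 genes with a RefSeq promoter, 1.77% hold TGACGTCA in this window, as did Slc25a25 and Slc25a36 among the 34 carriers with one. A match is a string of letters and shows no binding.

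Both carriers of dicarboxylates that were tested rose, where 11.9% of all genes tested did. Slc25a10, which exports malate or succinate in exchange for phosphate and is abundant in white fat (gene 27376, chromosome 11, 120491837 to 120501161), had 636.9 and 457.5 CPM in FKO, against 258.0, 344.2 and 144.6 CPM in f/f. The groups did not overlap but each was wide, and it rose 2.20-fold (log2 fold change 1.14, SE 0.34, edgeR adjusted p = 0.0495), just inside the threshold. The call was lost in 9 of 15 alternatives, which included the fits without either FKO replicate (edgeR adjusted p = 0.256 without 1 and 0.0949 without 2), without f/f replicate 1 (0.0961), scaled by library total (0.0671) or with limma-voom (0.0523), within 0.00492 to 0.256. Slc25a11, which swaps oxoglutarate for malate in the malate-aspartate shuttle (gene 67863, chromosome 11, 70644027 to 70647039), had 123.1 and 117.6 CPM in FKO and 71.2, 68.0 and 66.9 CPM in f/f. It rose 1.75-fold with little spread in either group (0.81, SE 0.13, edgeR adjusted p = 0.00667), and its call ended without FKO replicate 1 or 2 only (0.0787 and 0.0618), within 1.49e-08 to 0.0787. Slc25a21, the oxodicarboxylate carrier, had 0 counts in all 5 libraries, which allows at most 3 counts, or 0.0688 CPM, in the shallowest.

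Among the carriers of aspartate and glutamate, 1 of 4 rose, where 11.9% of all genes tested did. Slc25a22, the carrier that takes glutamate into the matrix with a proton (gene 68267, chromosome 7, 141429749 to 141437874), had 195.2 and 187.3 CPM in FKO, against 79.7, 60.0 and 56.3 CPM in f/f. Both FKO libraries were above 2 times the highest f/f library, and the gene rose 2.93-fold (log2 fold change 1.55, SE 0.18, edgeR adjusted p = 0.00266), a call kept in all 15 alternatives (0.0232 at most). Slc25a12, the aspartate-glutamate carrier aralar, had 6.42 and 10.7 CPM in FKO and 5.57, 6.16 and 7.32 CPM in f/f, with overlapping groups (0.43, SE 0.26, edgeR adjusted p = 0.264). Its paralog citrin, Slc25a13, was nearer the floor, with 10 and 41 counts in FKO and 55, 40 and 190 counts in f/f (-1.45, SE 0.81, edgeR adjusted p = 0.227). The second glutamate carrier, Slc25a18, had 12 and 14 counts in FKO and 36, 25 and 27 counts in f/f (-0.86, SE 0.55, edgeR adjusted p = 0.284).

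In the other amino acid carriers, 1 of 5 passed, where 25.4% of all genes tested passed in either direction. Slc25a44, which carries branched-chain amino acids in brown fat (gene 229517, chromosome 3, 88410494 to 88425141), had 127.2 and 122.4 CPM in FKO and 65.8, 67.4 and 58.0 CPM in f/f. It rose 1.96-fold (log2 fold change 0.97, SE 0.14, edgeR adjusted p = 0.00464), with the call ending only without FKO replicate 1 (0.0537) among the alternatives, whose lowest value was 1.38e-09. Slc25a38, the glycine carrier of haem synthesis, had 551 and 419 counts in FKO and 451, 688 and 608 counts in f/f, with overlapping groups (0.09, SE 0.18, edgeR adjusted p = 0.729). Slc25a15, the ornithine carrier, and Slc25a29, a carrier of basic amino acids, had log2 fold changes of 0.34 (SE 0.16, edgeR adjusted p = 0.16) and -0.61 (SE 0.29, edgeR adjusted p = 0.163). Slc25a2, a second ornithine carrier, had 13 and 14 counts in FKO and 0, 6 and 6 counts in f/f (2.13, SE 0.90, edgeR adjusted p = 0.122), and it passed only on the log2(FPKM + 0.1) scale (limma adjusted p = 0.0475, within 0.0475 to 0.362 over its alternatives).

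Carriers of nucleotides and cofactors made up the largest substrate group, and 5 of 9 rose, where 11.9% of all genes tested did. Slc25a51, which brings NAD into the matrix (gene 230125, chromosome 4, 45395924 to 45408766), had 347.1 and 349.6 CPM in FKO, against 152.6, 138.5 and 114.5 CPM in f/f. The FKO libraries were nearly equal and more than 2 times the highest f/f library, and it rose 2.58-fold (log2 fold change 1.37, SE 0.16, edgeR adjusted p = 0.00279), a call kept in all 15 alternatives (0.0266 at most). Slc25a33, a pyrimidine nucleotide carrier (gene 70556, chromosome 4, 149744036 to 149774267), had 40.2 and 44.0 CPM in FKO and 18.4, 15.9 and 16.4 CPM in f/f. It rose 2.49-fold (1.32, SE 0.14, edgeR adjusted p = 0.00196) and was called in all 15 alternatives as well (0.0241 at most). Its paralog Slc25a36 had 45.1 and 45.0 CPM in FKO and 58.9, 45.2 and 32.2 CPM in f/f (-0.01, SE 0.24, edgeR adjusted p = 0.978), with the FKO values inside the f/f range.

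Slc25a26 carries S-adenosylmethionine, the methyl donor that PRMT1 and other methyltransferases use, into the matrix (gene 67582, chromosome 6, 94500314 to 94604652). It had 32.5 and 34.0 CPM in FKO and 25.15, 22.1 and 21.7 CPM in f/f, 1.45-fold higher in FKO (0.53, SE 0.14, edgeR adjusted p = 0.0305). Slc25a26 overlaps Lrig1 on the opposite strand, which had 7653 and 5088 counts in FKO and 3970, 5006 and 3147 counts in f/f, and the sources used here do not say whether strand was used in counting. Slc25a42, the coenzyme A carrier (gene 73095, chromosome 8, 70184340 to 70212281), had 31.3 and 39.1 CPM in FKO and 24.8, 23.2 and 22.9 CPM in f/f, 1.49-fold higher in FKO (0.57, SE 0.15, edgeR adjusted p = 0.0313). The calls of Slc25a26 and Slc25a42 ended without FKO replicate 1 (0.169 and 0.0901), FKO replicate 2 (0.205 and 0.281) or f/f replicate 2 (0.0656 and 0.0684), scaled by upper quartile (0.0672 and 0.0675) or library total (0.126 and 0.127) and on both FPKM scales (0.116 and 0.113 for Slc25a26, 0.16 and 0.149 for Slc25a42), and that of Slc25a42 also without f/f replicate 3 (0.0529), within 0.00446 to 0.205 for Slc25a26 and 0.00571 to 0.281 for Slc25a42.

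The remaining cofactor carriers did not pass. Slc25a17, which serves peroxisomes and not mitochondria, had 69.7 and 82.7 CPM in FKO and 64.3, 55.65 and 40.9 CPM in f/f (log2 fold change 0.51, SE 0.21, edgeR adjusted p = 0.117). Slc25a16, linked to coenzyme A supply, had 96.35 and 85.65 CPM in FKO and 76.1, 64.6 and 45.8 CPM in f/f (0.55, SE 0.22, edgeR adjusted p = 0.108). In both genes the FKO libraries lay above all f/f libraries. Slc25a32, the carrier of folate and FAD, had 11.9 and 11.4 CPM in FKO and 12.5, 14.3 and 11.5 CPM in f/f (-0.13, SE 0.16, edgeR adjusted p = 0.581), and its groups overlapped.

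Of the glutathione and iron carriers, 2 of 4 rose, where 11.9% of all genes tested did. Slc25a39, which brings glutathione into the matrix (gene 68066, chromosome 11, 102402976 to 102407517), had 330.9 and 366.7 CPM in FKO, against 144.3, 146.6 and 138.5 CPM in f/f. Both groups were tight and far apart, and the gene rose 2.44-fold (log2 fold change 1.28, SE 0.13, edgeR adjusted p = 0.00194), the smallest adjusted p of any carrier, with the call kept in all 15 alternatives (0.0257 at most). Slc25a40, its paralog with the same substrate, had 13.1 and 13.4 CPM in FKO and 13.3, 11.2 and 11.7 CPM in f/f (0.14, SE 0.15, edgeR adjusted p = 0.549). Slc25a28, mitoferrin 2, the iron importer of non-erythroid cells (gene 246696, chromosome 19, 43663801 to 43674881), had 49.05 and 48.4 CPM in FKO and 29.7, 31.1 and 32.4 CPM in f/f. It rose 1.57-fold (0.65, SE 0.13, edgeR adjusted p = 0.0131), with the call ending without FKO replicate 1 or 2 (0.115 and 0.105) and with library size alone (0.0587), within 3.65e-05 to 0.115. Slc25a37, mitoferrin 1, best known from erythroid cells, had 23.5 and 28.2 CPM in FKO and 18.2, 18.3 and 20.3 CPM in f/f (0.45, SE 0.15, edgeR adjusted p = 0.064). It passed with DESeq2 (adjusted p = 0.0354, within 0.0354 to 0.412 over its alternatives), and the groups did not overlap. The 250 bases before the starts of Slc25a39 and Slc25a33 are given because these had the smallest adjusted p among the carriers.
Slc25a39 (chr11:102407518-102407767, strand minus): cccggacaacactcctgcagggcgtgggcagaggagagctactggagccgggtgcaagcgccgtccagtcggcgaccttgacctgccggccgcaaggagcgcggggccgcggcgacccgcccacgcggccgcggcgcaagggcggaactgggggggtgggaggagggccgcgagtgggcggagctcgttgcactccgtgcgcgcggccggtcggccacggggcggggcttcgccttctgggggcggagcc
Slc25a33 (chr4:149774268-149774517, strand minus): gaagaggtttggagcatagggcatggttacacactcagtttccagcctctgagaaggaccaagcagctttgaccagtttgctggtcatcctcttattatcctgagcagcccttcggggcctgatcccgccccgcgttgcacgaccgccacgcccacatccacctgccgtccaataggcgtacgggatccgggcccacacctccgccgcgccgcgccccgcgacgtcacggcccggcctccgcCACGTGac
Capitals mark an E-box, CACGTG, which begins 8 bases before the start of Slc25a33, and 6.86% of all genes hold it in this window. Of the carriers with a window it was found in 1 of 11 that rose and in 4 of 17 that did not pass (23.5%), and also in the untested Slc25a31. The Slc25a39 window held none of the 4 motifs searched, which says only that these letters are not in it. TNAAGGTCA was found in 0 of the 34 carriers and in 1.3% of all genes, and the NRF1 element in Slc25a3 and Slc25a31 and in 4.23% of all genes.

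Slc25a46, an outer-membrane protein of mitochondrial dynamics (gene 67453, chromosome 18, 31580168 to 31609902), had 121.1 and 129.4 CPM in FKO and 91.2, 85.3 and 77.5 CPM in f/f, 1.48-fold higher in FKO (log2 fold change 0.57, SE 0.14, edgeR adjusted p = 0.0265). The call ended without FKO replicate 1 or 2 (0.149 and 0.2), without f/f replicate 2 (0.0516), scaled by library total (0.088) and on both FPKM scales (0.0723 and 0.0725), within 0.00105 to 0.2. None of the 3 relatives of the uncoupling proteins passed with edgeR, at an adjusted p of 0.0718, 0.219 and 0.362 for Slc25a30, Slc25a14 and Slc25a27. Slc25a30, a kidney-enriched relative, had 15.5 and 21.9 CPM in FKO and 13.9, 12.9 and 10.6 CPM in f/f (0.59, SE 0.20) and passed with DESeq2 (adjusted p = 0.0427, within 0.0427 to 0.463 over its alternatives). Slc25a14 had 2.60 and 2.92 CPM in FKO and 4.12, 3.35 and 3.76 CPM in f/f, and Slc25a27 had 17 and 10 counts in FKO and 24, 16 and 55 counts in f/f.

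Of 7 tested members to which no substrate was assigned, 1 rose and 1 fell, both from low levels. Over all genes tested, 11.9% rose and 13.4% fell. Slc25a48 (gene 328258, chromosome 13, 56438355 to 56472363) had 67 and 40 counts in FKO, against 6, 14 and 0 counts in f/f, or 1.22 ± 0.38 CPM (SD, n = 2) against 0.124 ± 0.119 CPM (SD, n = 3). Its fitted log2 fold change was 3.30 (SE 0.95, edgeR adjusted p = 0.0431), and it passed the filter on low counts only through FKO. Slc25a47, known mainly from liver (gene 104910, chromosome 12, 108851129 to 108856815), had 27 and 13 counts in FKO and 77, 105 and 82 counts in f/f. It fell 3.47-fold (-1.80, SE 0.44, edgeR adjusted p = 0.0261), and its neighbour 15253 bases away is the basic amino acid carrier Slc25a29, which did not pass. The Slc25a48 call ended without FKO replicate 1 or 2 (0.199 and 0.11), without f/f replicate 1 (0.0861) and with no filter (0.0507), within 0.00886 to 0.199. That of Slc25a47 ended without FKO replicate 1 or 2 (0.0623 and 0.153), without f/f replicate 1 (0.0545) and without f/f replicate 2 (0.0623), within 0.00224 to 0.153. Slc25a35 was the most abundant of the group, with 41.1 and 39.1 CPM in FKO and 27.5, 30.4 and 16.1 CPM in f/f (0.70, SE 0.26, edgeR adjusted p = 0.0883), and it passed without f/f replicate 3 (0.0477) and with DESeq2 (0.0436), within 0.0436 to 0.293. It overlaps Rangrf on the opposite strand, which had 162 to 316 counts per library. Slc25a45 had 4.65 and 3.83 CPM in FKO and 7.10, 4.47 and 6.75 CPM in f/f. Slc25a53, Slc25a34 and Slc25a43 had at most 80, 47 and 17 counts in any library, and Slc25a54 had 0 in all 5, beside Slc25a24, 6567 bases away.

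The balance between carriers of like substrate was measured next. It within 7 pairs was taken as the log2 ratio of FPKM in each library and compared by a two-sided exact permutation test over the libraries, which with 2 against 3 cannot go below p = 0.2. In all 7 pairs the FKO and f/f ratios did not overlap, so each exact permutation p was 0.2, the smallest possible, and also 0.2 after adjustment over the 7. Of single genes 59.0% likewise did not overlap, and the share for other ratios was not computed. Slc25a12 over Slc25a13 is among the 7 but entered only through f/f replicate 3, the library where Slc25a13 was highest. Slc25a24 is in the pairs with Slc25a23 and with Slc25a25, so the 7 are not separate results. Slc25a4 over Slc25a5 stood at -0.39 and -0.39 in FKO, against -0.12, 0.30 and 0.45 in f/f, a difference of -0.60. In shares, Slc25a4 made up 43.4% and 43.4% of the pair in FKO and 47.9%, 55.2% and 57.7% in f/f. Slc25a33 over Slc25a36 stood at 0.54 and 0.68 in FKO and at -0.97, -0.80 and -0.27 in f/f. By FPKM the more abundant pyrimidine carrier was thus Slc25a33 in both FKO libraries and Slc25a36 in all 3 f/f libraries. In CPM, which do not adjust for transcript length, Slc25a36 was the higher in every library (45.1 and 45.0 CPM in FKO, against 40.2 and 44.0 CPM for Slc25a33). Slc25a39 made up 97.7% and 97.9% of its pair with Slc25a40 in FKO and 94.8%, 95.7% and 95.2% in f/f, a log2 ratio 1.14 higher in FKO.

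Within the ATP-Mg carriers, Slc25a23 over Slc25a24 had ratios of 3.28 and 2.46 in FKO and of 1.90, 2.36 and 1.28 in f/f. Slc25a24 over Slc25a25 had ratios of -3.32 and -2.41 in FKO and of -4.11, -3.69 and -3.45 in f/f, since Slc25a25 was the more abundant in every library. The mitoferrins Slc25a28 and Slc25a37 differed least between the groups, with log2 ratios of 2.50 and 2.22 in FKO and of 2.15, 2.21 and 2.11 in f/f, so that FKO replicate 2 and f/f replicate 2 were nearly equal. The difference between them was 0.21, or 0.06 without FKO replicate 1 and 0.35 without FKO replicate 2. Slc25a12 made up 97.0% and 92.3% of its pair with Slc25a13 in FKO and 83.2%, 90.7% and 72.6% in f/f, on few counts of Slc25a13. A pair was compared only if both genes reached 1 FPKM in some library. Slc25a13 did so in f/f replicate 3 alone, with 1.04 FPKM, against 0.0606 to 0.392 elsewhere. In that library 136 of its 190 counts were assigned to NM_001177572, which had 0 to 4 counts in the others. Without FKO replicate 1 the log2 difference of 1.95 for Slc25a12 over Slc25a13 was 1.24. The Slc25a23 over Slc25a24 difference of 1.02 was then 0.61. The Slc25a24 over Slc25a25 difference of 0.88 became 1.34 or 0.43 when FKO replicate 1 or 2 was left out.

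**Figure D4:**
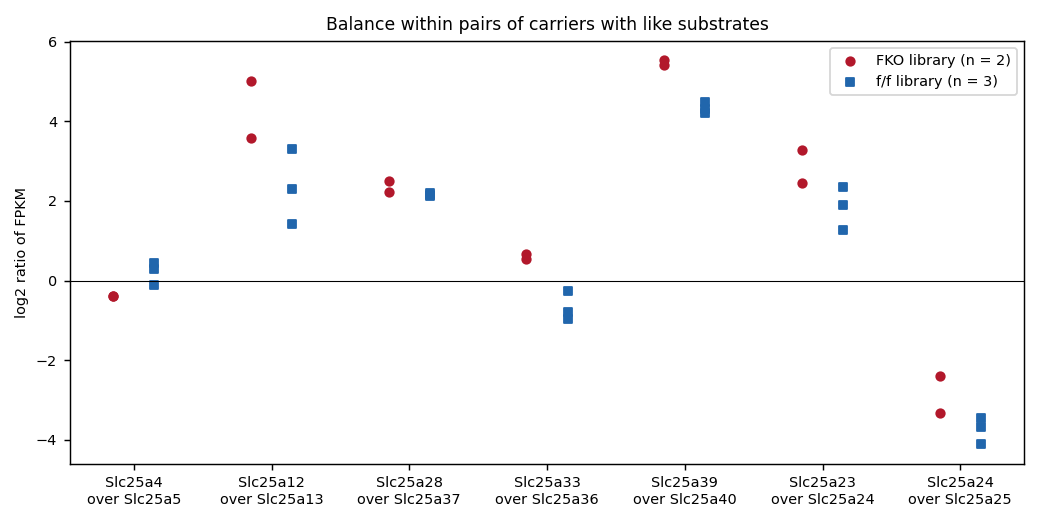
Points give the log2 ratio of FPKM of the first gene over the second in each library, for 7 pairs of carriers, with FKO libraries as circles left of f/f libraries as squares. The groups are apart in every pair, of which Slc25a12 over Slc25a13 entered only through f/f replicate 3. The FKO and f/f points of Slc25a33 over Slc25a36 lie on opposite sides of 0 by FPKM, while Slc25a36 was higher in CPM in every library.

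The table splits 11 of the 45 genes into several RefSeq transcripts, and 6 of these could be tested for a change in transcript use. None was called by edgeR's diffSpliceDGE, and 0 had an unadjusted p below 0.05, where 1.0% of 3997 genes tested were called, and no other tool was run for transcript use. The estimates varied within the f/f group. Slc25a44 was assigned to NM_178696 for 3.16% and 3.15% in FKO and for 5.80%, 3.43% and 71.6% in f/f, so f/f replicate 3 stood apart from the other 4 libraries. Slc25a22 was assigned to NM_026646 for 75.7% and 93.0% in FKO and 72.2%, 85.5% and 75.9% in f/f, with overlapping groups. The summed level of Slc25a44 showed no such split, as f/f replicate 3 had 58.0 CPM, against 65.8 and 67.4 CPM in the other f/f libraries.

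**Figure D5:**
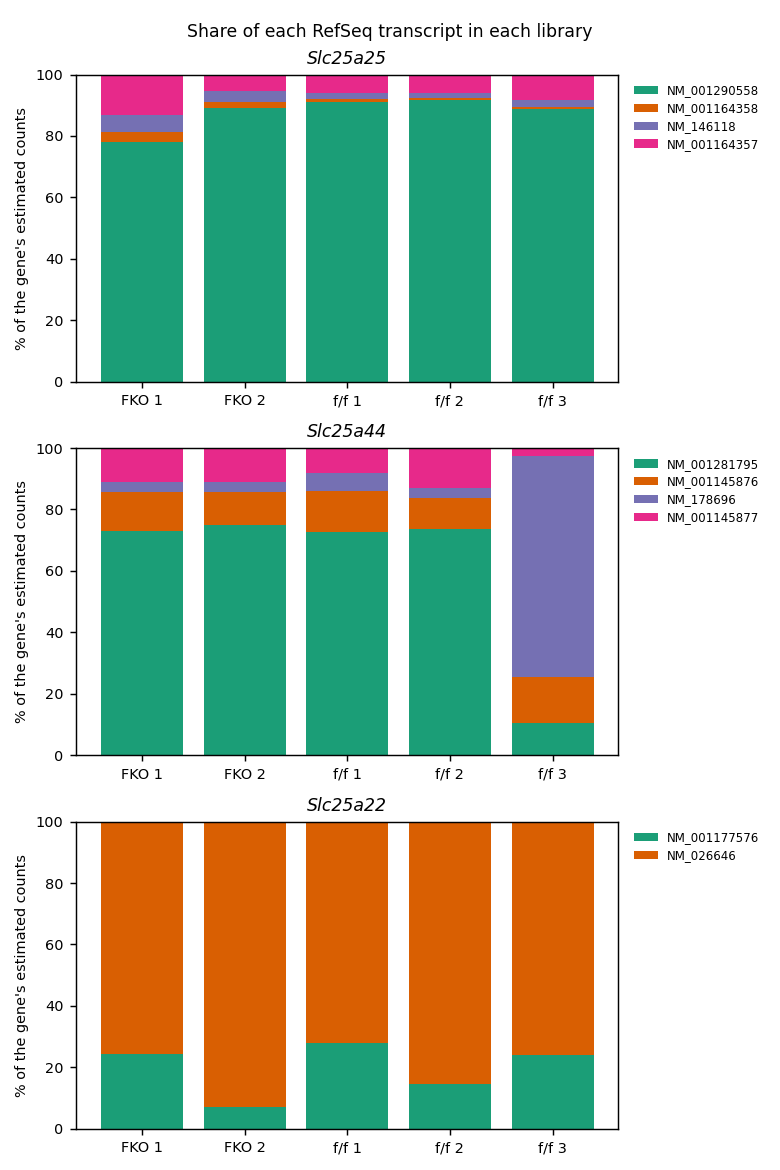
Stacked bars give, for Slc25a25, Slc25a44 and Slc25a22, the percentage of the gene's estimated counts assigned to each RefSeq transcript in each FKO and f/f library. Slc25a25 is mainly NM_001290558 in all 5 libraries, while f/f replicate 3 has 71.6% NM_178696 for Slc25a44, unlike the other f/f libraries.

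Where 11.9% of all genes tested rose and 13.4% fell, other proteins with the same fold but other names were mixed. Of 5 such genes, Mtch2, an outer-membrane insertase, rose, with 445.6 CPM in FKO against 203.5 CPM in f/f on average (log2 fold change 1.13, SE 0.20, edgeR adjusted p = 0.00902). Its paralog Mtch1 fell to 76.2 CPM in FKO, against 143.3 CPM in f/f (-0.91, SE 0.15, edgeR adjusted p = 0.00803), and so did Ucp2, an uncoupling protein relative common in immune cells, to 55.2 CPM against 150.7 CPM (-1.45, SE 0.25, edgeR adjusted p = 0.00922). The median log2 fold change of the macrophage markers was -1.50, and the part of macrophages in the Ucp2 fall was not tested. Ucp1, the uncoupling protein of brown fat, was at 0.144 CPM in FKO and 0.443 CPM in f/f, and Ucp3 of muscle had a log2 fold change of 0.60 (SE 0.19, edgeR adjusted p = 0.0519). The calls of Mtch1 and Mtch2 ended without FKO replicate 1 (0.0903 and 0.0603) or 2 (0.0732 and 0.0606), and that of Ucp2 without FKO replicate 1 (0.0758), with lowest values of 6.78e-07, 2.97e-06 and 1.17e-06 over the alternatives.

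Inner-membrane transporters of other families rose in 9 of 24 cases and fell in 1, with a median log2 fold change of 0.47. For the counts in this paragraph, 11.9% of all genes tested rose and 13.4% fell. Among genes with a mean of at least 10 FPKM, 19.6% rose and 9.61% fell. Mpc1 and Mpc2, which form the pyruvate carrier, rose 1.63 and 0.88 on the log2 scale (SE 0.23 and 0.14, edgeR adjusted p = 0.00464 and 0.00602). Sfxn1, the serine carrier, averaged 496.2 CPM in FKO and 201.0 CPM in f/f (edgeR adjusted p = 0.0141), and Letm1, a cation exchanger, rose 0.97 (SE 0.14, edgeR adjusted p = 0.00494). The calls of Mpc2, Letm1 and Sfxn1 ended without FKO replicate 1 (0.0746, 0.0518 and 0.0894), and that of Sfxn1 also without FKO replicate 2 (0.0567), with lowest values of 1.11e-08, 4.31e-09 and 3.82e-05. The gene that fell was Ccdc109b, a subunit that dampens the calcium uniporter, with 1.60 CPM in FKO and 4.76 CPM in f/f on average (log2 fold change -1.58, SE 0.41, edgeR adjusted p = 0.0316), and it is named after its values were seen. Most carrier precursors have no cleaved presequence and reach the inner membrane through TOM70, the small TIM chaperones and TIM22, and 8 of the 15 genes of that route in the table rose while 7 did not pass (median 0.53). Timm10, a small TIM chaperone, rose 1.08 (SE 0.15, edgeR adjusted p = 0.00425) and Tomm70a, the receptor, 0.95 (SE 0.13, edgeR adjusted p = 0.00464). Without FKO replicate 1 the Tomm70a call ended (0.0576), within 4.97e-10 to 0.0576. The pores of the outer membrane, Vdac1, Vdac3 and Vdac2, rose 1.05, 0.85 and 0.58 (edgeR adjusted p = 0.00483, 0.0118 and 0.0334). The calls of Vdac3 and Vdac2 ended without FKO replicate 1 (0.0995 and 0.238) or 2 (0.0752 and 0.145), and that of Vdac2 also without f/f replicate 2 (0.0711), without f/f replicate 3 (0.0569), scaled by upper quartile (0.0672) or library total (0.111) and on both FPKM scales (0.0909 and 0.0911), within 3.78e-05 to 0.0995 for Vdac3 and 0.00289 to 0.238 for Vdac2.

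The enzymes that work with Slc25a11, Slc25a12 and Slc25a13 in the malate-aspartate shuttle divided by reaction. The malate dehydrogenases rose, Mdh2 of the matrix to 854.6 CPM in FKO, against 338.5 CPM in f/f (log2 fold change 1.34, SE 0.19, edgeR adjusted p = 0.00499), and Mdh1 of the cytosol to 1092 CPM, against 659.8 CPM (0.73, SE 0.18, edgeR adjusted p = 0.0287). The aspartate aminotransferases fell, Got2 of the matrix to 11.9 CPM in FKO, against 36.9 CPM in f/f (-1.64, SE 0.18, edgeR adjusted p = 0.0022), and Got1 of the cytosol to 2.41 CPM, against 10.9 CPM (-2.18, SE 0.30, edgeR adjusted p = 0.00425). The calls of Mdh2, Got1 and Got2 were kept in all 15 alternatives (0.0408, 0.0256 and 0.027 at most). That of Mdh1 ended without FKO replicate 1 or 2 (0.189 and 0.108), without f/f replicate 2 or 3 (0.0709 and 0.0554), scaled by library total (0.0639) and on both FPKM scales (0.0696 and 0.0651), within 0.000886 to 0.189. In the same libraries 4 of 10 adipocyte markers rose, with a median log2 fold change of 0.27, where 11.9% of all genes tested rose. Adipoq, Plin1, Fabp4, Pparg, Lipe and Lep did not pass. The part of cell composition in the enzyme differences was not tested.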

How the data were processed

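Per the labels' protocols, poly-A RNA went into TruSeq mRNA libraries read on a HiSeq4000. The authors deposited 1 table of 36779 RefSeq transcripts with a gene name, after 1 empty row was left out, with 0 columns of values per sample unused. The submitters' processing notes list StringTie 1.3.4d, HISAT2 2.1.0, Bowtie2, HISAT and the genome build mm10, without saying what each did. Estimated counts were deposited by the authors as unscaled whole numbers for each transcript. FPKM values were deposited beside them, which per the file headers adjust for transcript length and library depth. Such estimates can split reads between transcripts, paralogs and overlapping genes.

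Counts and FPKM were summed per gene identifier. All 45 carriers matched RefSeq by identifier and symbol. Genes were tested in R 4.3.3 with edgeR 4.0.16 (quasi-likelihood, TMM factors of 0.9004 and 0.9215 in FKO and 1.035, 1.036 and 1.123 in f/f, filterByExpr, genotype as the sole term, all 5 libraries). Standard errors are the log2 fold change over the square root of F, and the biological coefficient of variation was 23%. Transcript use was tested with diffSpliceDGE. Alternatives used DESeq2 1.42.0, limma 3.58.1 (voom, and log2 of FPKM plus 1 or 0.1), other scalings and filters, the replicate number as a block, and each library left out. Where 1 library is left in a group, it is assumed to vary like the others. No library pair within a group agreed within sampling noise (median chi-square per gene 3.71 to 15.5, where noise gives 0.455). On simulated data with an assumed dispersion the FKO against f/f gene test, run on 14388 genes, recovered 5.97%, 29.9% and 97.0% of genes changed 1.5-fold, 2-fold and 4-fold, with 5.38% false calls, and the transcript use test, on 4123 genes, recovered 81.1% of 4-fold changes with 8.09% false calls. Floors cover counting error only.

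Full values are given for carriers that passed and for the 10 with the highest mean FPKM, and for other lists up to 4 genes with the smallest p. Values of the other carriers and of Ccdc109b were added after they were seen. The members, lists and motifs were chosen with earlier results of these data known, so no list is independent evidence of a direction. The values of 1 carrier that passed are not reported here, though counts over the family include it. Promoter letters come from RefSeq on GRCm38.p6.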

Additional observations from a re-analysis of the deposited data

How the results depend on the processing

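Over 15 alternatives, the 19 carriers called by edgeR gave 284 values, of which 216 kept the call and 68 lost it, and none changed direction. The number of carriers higher in FKO was 16, against 9 with library size alone and 10 on the log2(FPKM + 1) scale, and it ranged from 4 to 15 when each library was left out. The number lower was 3, and 1 to 2 with a library left out. Over all genes 3674 were called, and 909 to 3449 with a library left out. Leaving out an FKO replicate leaves 1 library in that group. The number with a change in transcript use was 0 in every setting tried. DESeq2 called 19 carriers higher and 3 lower. The replicate numbers are shared by name only: deviations of same-numbered libraries correlated at 0.066 and -0.081, which does not show pairing. With the replicate number as a block, 12 carriers were higher and 3 lower, 3278 of all genes were called, and the calls of Slc25a3 (edgeR adjusted p = 0.0672), Slc25a46 (0.0611), Slc25a26 (0.0597) and Slc25a42 (0.0558) ended, as did that of Vdac2 (0.0537). All 7 pair differences kept their sign in each alternative. The 5 carriers called in all 15 alternatives were Slc25a22, Slc25a25, Slc25a33, Slc25a39 and Slc25a51. Few counts lie behind some values: Slc25a48, Slc25a47, Slc25a53, Slc25a34, Slc25a27, Slc25a18, Slc25a43 and Slc25a2 had at most 67, 105, 80, 47, 55, 36, 17 and 14 counts in any library.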
